A study of Mus musculus with 79 samples.

Results

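Genes of cholesterol and fatty acid synthesis were followed in the hippocampus and frontal cortex of APP/PS1 mice infused with an antisense oligonucleotide (ASO) against Cd33, and of their controls. The set was defined by name as 32 genes, namely enzymes of sterol synthesis, the regulators of that pathway together with a sterol carrier, and enzymes of fatty acid synthesis and desaturation. A named probe was present on the bead array for 29 of them, 36 probes in all out of 25697 on the array, which named 12739 genes, and no probe was named for Acat2, Fdft1 or Mvk. A probe was kept where its signal was detected at p below 0.05 on at least 8 arrays of a tissue, which left 35 probes of 28 genes in each tissue. Of these, 18 probes belonged to 14 sterol enzymes, 9 to 6 regulators and the carrier, and 8 to 8 fatty acid enzymes. The probe of Idi1 did not pass, being detected on 6 hippocampal and 3 cortical arrays. Members were chosen by gene name with earlier results of these data known, and their probes were kept by detection.

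Cells build cholesterol from acetyl-CoA through the mevalonate pathway, in which 3-hydroxy-3-methylglutaryl-CoA, mevalonate, isoprenoids, squalene and lanosterol follow each other. When sterols in the endoplasmic reticulum run low, SCAP escorts the SREBP transcription factors to the Golgi for cleavage, and the released factors bind sterol response elements of these genes. INSIG proteins hold SCAP back when sterols are plentiful. SREBP-2, encoded by Srebf2, mainly drives sterol genes, and SREBP-1, encoded by Srebf1, mainly drives fatty acid genes. The brain makes nearly all of its own cholesterol, most of it in astrocytes and in oligodendrocytes, which need it for myelin.

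The study used 40 female mice, 39 of which gave both tissues, and 79 arrays. The APP/PS1 line carries mutant human amyloid precursor protein and presenilin 1 transgenes under a Thy1 promoter, which acts mainly in neurons. All animals, wild-type littermates included, received a ventricular cannula and an osmotic pump and were housed singly afterwards. The 4 groups were APP/PS1 with CD33 ASO (9 hippocampal and 10 cortical arrays), APP/PS1 with a non-targeting control ASO (11 and 11), APP/PS1 with PBS vehicle (8 and 8) and wild type (WT) with PBS (11 and 11). Pumps delivered 75 µg of oligonucleotide daily in 6 µL over 14 days, starting at an age of 18 weeks, and tissue was taken at about 20.5 weeks, usually 17 days after surgery. No oligonucleotide was infused into WT mice.

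The targeted transcript checked the labels first. Cd33, a receptor of microglia, lay between 4.45 and 5.15 on the log2 scale in the hippocampus after CD33 ASO (median 4.77), between 6.15 and 7.16 after control ASO (6.42), between 5.62 and 6.55 after PBS (6.26) and between 5.62 and 6.08 in WT mice (5.81). In the cortex the ranges were 4.49 to 6.39 (median 5.72), 6.48 to 7.25 (6.88), 6.28 to 6.94 (6.73) and 5.46 to 6.22 (5.76) in the same order. By limma, the CD33 ASO lowered the Cd33 signal relative to PBS, with hippocampal and cortical log2 differences of −1.42 and −1.08 (adjusted p = 8.21e-12 and 1.45e-05). Arrays detected 13139 to 14446 probes in the hippocampus and 13105 to 13766 in the cortex. Thy1, which was higher in APP/PS1 PBS than in WT PBS mice in both tissues (by 0.77 and 0.71), was within or just below the WT range on 7 arrays of 4 animals labelled APP/PS1 (13.81 to 14.01). Of these animals 2 were in each ASO group. In addition 3 CD33 ASO animals, 2 of them among those 4, were collected 13 to 16 days after surgery and 1 APP/PS1 PBS animal after 14 days. Main results are therefore given with and without both sets of animals.

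The promoters of 5 genes that were lower in the cortex after CD33 ASO are shown so that the motifs searched for can be seen in their sequence. They are the genes among the 7 called there for which RefSeq (GRCm38.p6) gave exactly 1 promoter, from 250 bases before to 50 after the transcript start. Hmgcs1 makes 3-hydroxy-3-methylglutaryl-CoA (chr13:119690101-119690400, plus strand), Mvd decarboxylates mevalonate diphosphate (chr8:122443373-122443672, minus strand), Nsdhl removes the C-4 methyl groups of sterol intermediates (chrX:72918271-72918570, plus strand), Insig1 encodes a sterol-sensing anchor of SCAP (chr5:28071162-28071461, plus strand) and Fads2 encodes the delta-6 desaturase of polyunsaturated fatty acids (chr19:10101454-10101753, minus strand). Capitals mark matches to the sterol response element TCACNCCAC, the E-box CACGTG and the CCAAT box bound by NF-Y, searched on both strands, so that ATTGG is a CCAAT box on the other strand.
Hmgcs1: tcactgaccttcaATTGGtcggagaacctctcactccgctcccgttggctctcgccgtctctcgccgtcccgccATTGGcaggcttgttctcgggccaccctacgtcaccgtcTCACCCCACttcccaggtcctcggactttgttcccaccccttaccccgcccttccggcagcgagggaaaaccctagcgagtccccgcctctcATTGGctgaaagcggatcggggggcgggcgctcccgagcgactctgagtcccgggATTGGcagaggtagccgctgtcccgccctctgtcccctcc
Mvd: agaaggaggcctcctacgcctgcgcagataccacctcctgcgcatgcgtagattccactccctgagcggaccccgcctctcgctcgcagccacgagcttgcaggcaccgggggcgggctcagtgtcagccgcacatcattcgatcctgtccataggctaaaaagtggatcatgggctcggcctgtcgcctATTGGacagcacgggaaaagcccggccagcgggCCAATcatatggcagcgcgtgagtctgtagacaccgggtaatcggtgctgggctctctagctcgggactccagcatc
Nsdhl: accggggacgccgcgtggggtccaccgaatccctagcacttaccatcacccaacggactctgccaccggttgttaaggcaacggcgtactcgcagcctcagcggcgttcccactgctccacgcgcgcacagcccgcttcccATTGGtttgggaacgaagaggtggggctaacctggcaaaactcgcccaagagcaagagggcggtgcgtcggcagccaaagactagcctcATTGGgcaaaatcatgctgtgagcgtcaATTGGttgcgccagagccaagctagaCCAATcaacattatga
Insig1: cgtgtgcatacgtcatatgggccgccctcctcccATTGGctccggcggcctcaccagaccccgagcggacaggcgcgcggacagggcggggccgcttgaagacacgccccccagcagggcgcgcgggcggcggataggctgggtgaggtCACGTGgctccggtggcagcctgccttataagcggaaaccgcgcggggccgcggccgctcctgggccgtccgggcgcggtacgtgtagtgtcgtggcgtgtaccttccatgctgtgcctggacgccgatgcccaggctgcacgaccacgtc
Fads2: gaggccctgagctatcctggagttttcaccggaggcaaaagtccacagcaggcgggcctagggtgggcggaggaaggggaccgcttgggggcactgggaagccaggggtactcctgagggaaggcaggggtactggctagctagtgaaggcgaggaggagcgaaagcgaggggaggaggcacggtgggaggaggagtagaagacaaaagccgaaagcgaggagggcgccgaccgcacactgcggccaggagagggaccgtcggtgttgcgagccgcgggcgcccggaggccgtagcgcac
The sterol response element was found in the Hmgcs1 promoter only among those printed, as TCACCCCAC. CCAAT boxes were found at 4 places in Hmgcs1, 4 in Nsdhl, 2 in Mvd and 1 in Insig1, and the E-box before the Insig1 start. None of the 3 motifs was in the Fads2 window.

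Promoters were available for 22 of the 28 measured genes (30 promoters). TCACNCCAC was in 1 of the 30, against 1.24% of all 32851 promoters in the table, and CACGTG in 6 of 30, against 7.15%. CCAAT was in 19 of 30, against 37.4% of all. By role, 12 of 15 sterol enzyme promoters and 2 of 5 fatty acid enzyme promoters held a CCAAT box, and all 12 sterol enzymes with a promoter had one in at least 1 of theirs, against 41.1% of all genes. These matches describe the letters of the windows and not binding.

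Mean log2 signals over all arrays ran from 4.87 for Fasn, the fatty acid synthase, to 13.48 for Hmgcs1. The probes of Fads1, the delta-5 desaturase, of Acly, which splits citrate into acetyl-CoA, and of Fdps, which makes farnesyl diphosphate, stood at 13.09, 11.98 and 11.09. Probes differ in how they bind, so these values describe each probe and give no order of transcript amounts. Fasn was detected on 9 hippocampal and 13 cortical arrays only, and its values bear little weight.

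**Figure D1:**
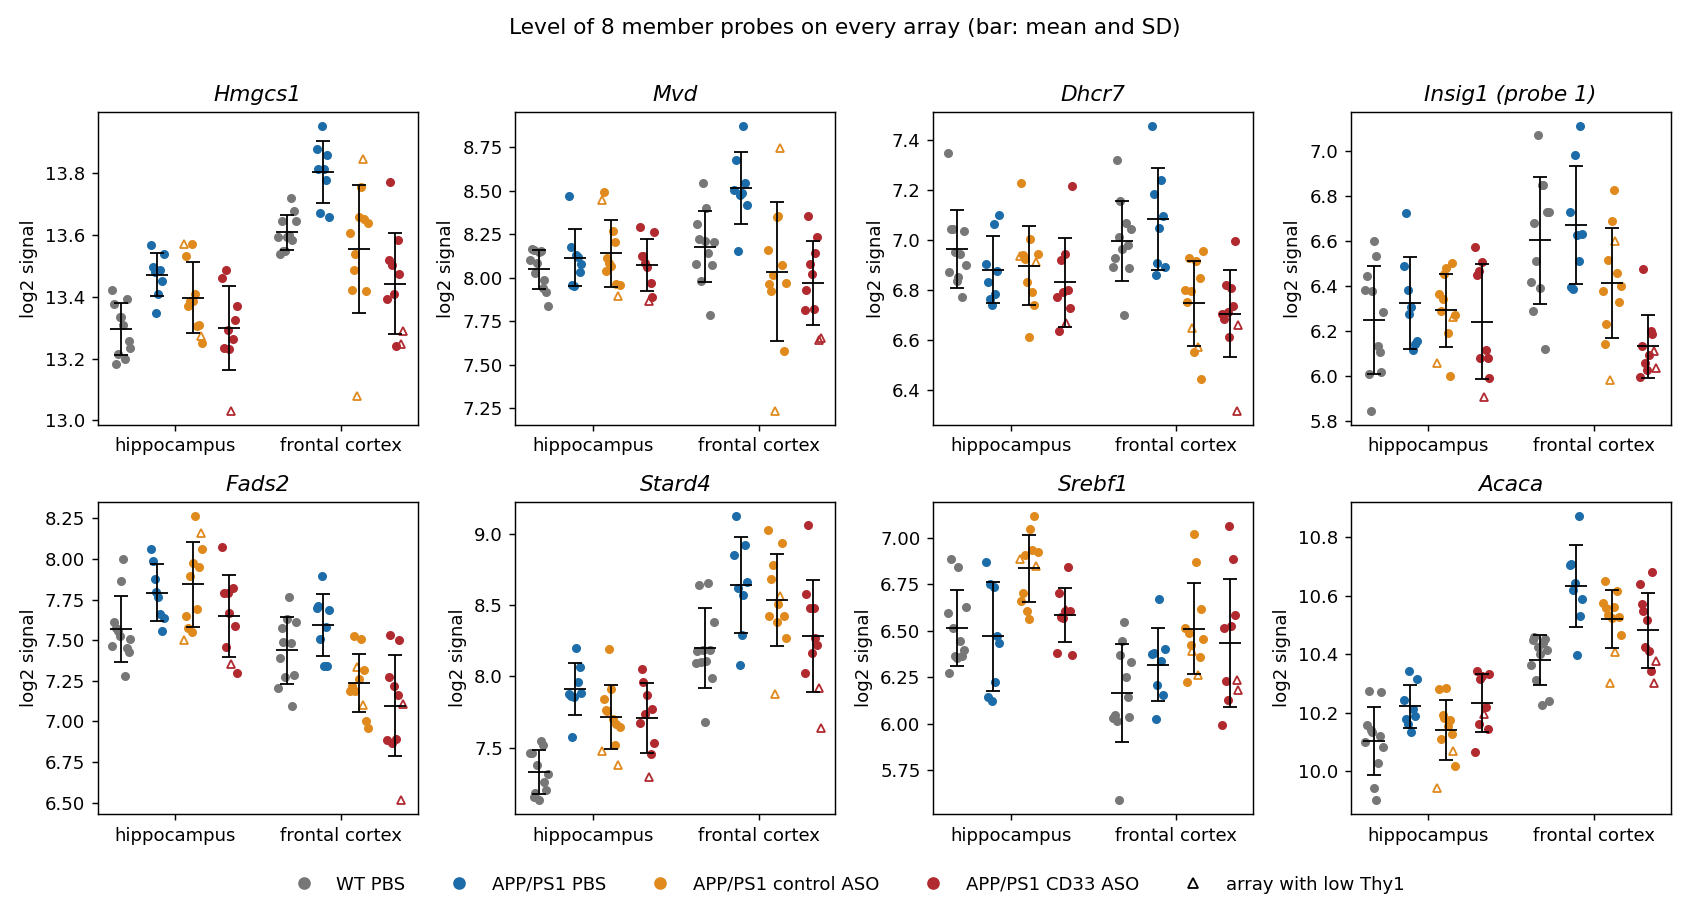
Log2 signal of 8 member probes on each array, by tissue and group. Each point is 1 array, bars mark group means with SD, and open triangles mark arrays with low Thy1. In the cortex, CD33 ASO arrays of Hmgcs1 lay between 13.24 and 13.77 and PBS arrays between 13.66 and 13.95.

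In the frontal cortex, CD33 ASO infusion was accompanied by lower signal of the mevalonate and sterol branch. Against APP/PS1 PBS mice, 7 of 35 member probes were lower at adjusted p below 0.05 (limma, adjusted over all 14581 cortical probes) and 0 higher, where 0.802% of all tested probes were lower, 0.686% higher and 1.49% called in either direction. They were 5 of the 18 sterol enzyme probes (Hmgcs1, Mvd, Sqle, Nsdhl and Dhcr7), 1 of the 9 regulator and carrier probes (Insig1) and 1 of the 8 fatty acid enzyme probes (Fads2). The median log2 difference was −0.32 over sterol enzyme probes (17 of 18 negative), −0.03 over regulators and the carrier (6 of 9) and −0.14 over fatty acid enzymes (7 of 8), and −0.0043 over all tested probes, of which 51.5% were negative. At an unadjusted p below 0.05 there were 20 member probes of 35, 13 of them sterol enzymes, against 13.1% of all probes. RNA was taken from whole tissue, so fewer cells of a type and less RNA per cell cannot be told apart.

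At the entry to the pathway, Hmgcs1 (gene 208715, chr13:119690351-119708260 in GRCm38.p6) had cortical log2 levels of 13.24, 13.44 and 13.77 after CD33 ASO (lowest, median and highest) and of 13.66, 13.81 and 13.95 after PBS. Of the 10 CD33 ASO arrays, 9 lay below every PBS array. Means were 13.44 ± 0.165 (SD, n = 10) and 13.80 ± 0.100 (SD, n = 8). The difference was −0.36 (SE 0.0654, limma adjusted p = 0.000936), a 1.28-fold lower signal. Mvd (gene 192156, chr8:122433596-122443422) had levels of 7.64, 7.98 and 8.36 after CD33 ASO and of 8.15, 8.49 and 8.87 after PBS. The groups overlapped in 2 of the 10 CD33 ASO arrays, and the signal was 1.46-fold lower (log2 −0.55, SE 0.126, adjusted p = 0.0129).

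The other 3 called enzymes act on squalene and later intermediates. Sqle, the squalene epoxidase and a rate-limiting step of the pathway (gene 20775, chr15:59315092-59331193), was measured by 2 probes. The second probe had levels of 10.25, 10.74 and 10.96 after CD33 ASO and of 10.80, 11.03 and 11.17 after PBS, and 7 of 10 CD33 ASO arrays lay below all PBS arrays (−0.34, SE 0.0924, adjusted p = 0.0429). The first Sqle probe differed by −0.41 and was not called (adjusted p = 0.0664). Nsdhl (gene 18194, chrX:72918521-72958528) was read by 4 probes, of which the second was called.

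For that Nsdhl probe, levels were 6.56, 6.78 and 7.25 after CD33 ASO and 6.86, 7.38 and 7.68 after PBS, and 5 of 10 CD33 ASO arrays lay below all PBS arrays (−0.49, SE 0.127, adjusted p = 0.0317). The other 3 Nsdhl probes differed by −0.41, −0.30 and −0.25 and were not called (adjusted p = 0.173, 0.354 and 0.481), so the probes shared a sign and not a call. Dhcr7 reduces 7-dehydrocholesterol in the last step to cholesterol (gene 13360, chr7:143823167-143848410). Its levels were 6.32, 6.71 and 7.0 after CD33 ASO and 6.86, 7.07 and 7.45 after PBS, and 9 of 10 CD33 ASO arrays lay below all PBS arrays (−0.38, SE 0.0893, adjusted p = 0.0156).

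Among regulators, the first Insig1 probe (gene 231070, chr5:28071412-28078662) had levels of 6.00, 6.10 and 6.48 after CD33 ASO and of 6.39, 6.63 and 7.11 after PBS. Again 9 of 10 CD33 ASO arrays lay below all PBS arrays, with 1.45-fold lower signal (−0.54, SE 0.114, adjusted p = 0.00570). Insig1 probes 2 and 3 differed by −0.36 and −0.02 (adjusted p = 0.277 and 0.973), so the 3 probes disagreed. The factors and their escort showed no call: Srebf2 differed by −0.25 (adjusted p = 0.390), Srebf1 by 0.11 (0.793), and Scap by −0.03 (0.931). Stard4, which carries cholesterol between membranes, differed by −0.36 (adjusted p = 0.256).

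Fads2 was the fatty acid enzyme that was called (gene 56473, chr19:10062765-10101503). Its levels were 6.52, 7.14 and 7.53 after CD33 ASO and 7.34, 7.63 and 7.89 after PBS, and 8 of 10 CD33 ASO arrays lay below all PBS arrays (−0.50, SE 0.108, adjusted p = 0.00673). The stearoyl-CoA desaturases Scd2 and Scd1 differed by −0.34 and −0.28 (adjusted p = 0.118 and 0.175). Acaca, the acetyl-CoA carboxylase that commits carbon to fatty acids, differed by −0.15 (adjusted p = 0.177), and Acly by −0.09 (0.534). Sterol enzymes close to the threshold were Fdps (−0.29, adjusted p = 0.0508) and the lanosterol demethylase Cyp51 (−0.37, 0.0572). Elsewhere in the sterol chain, Lss differed by −0.36, Tm7sf2 by −0.29, Msmo1 by −0.21, Hsd17b7 by −0.14, the sterol isomerase Ebp by −0.13 and the lathosterol desaturase Sc5d by −0.10, none of them called. The phosphomevalonate kinase Pmvk had the only positive difference among sterol enzymes (0.06, adjusted p = 0.882). The remaining members were also not called, with Insig2 at 0.11 and 0.03, Fads1 at −0.09, Elovl6 at −0.13 and Fasn at 0.08.

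**Figure D2:**
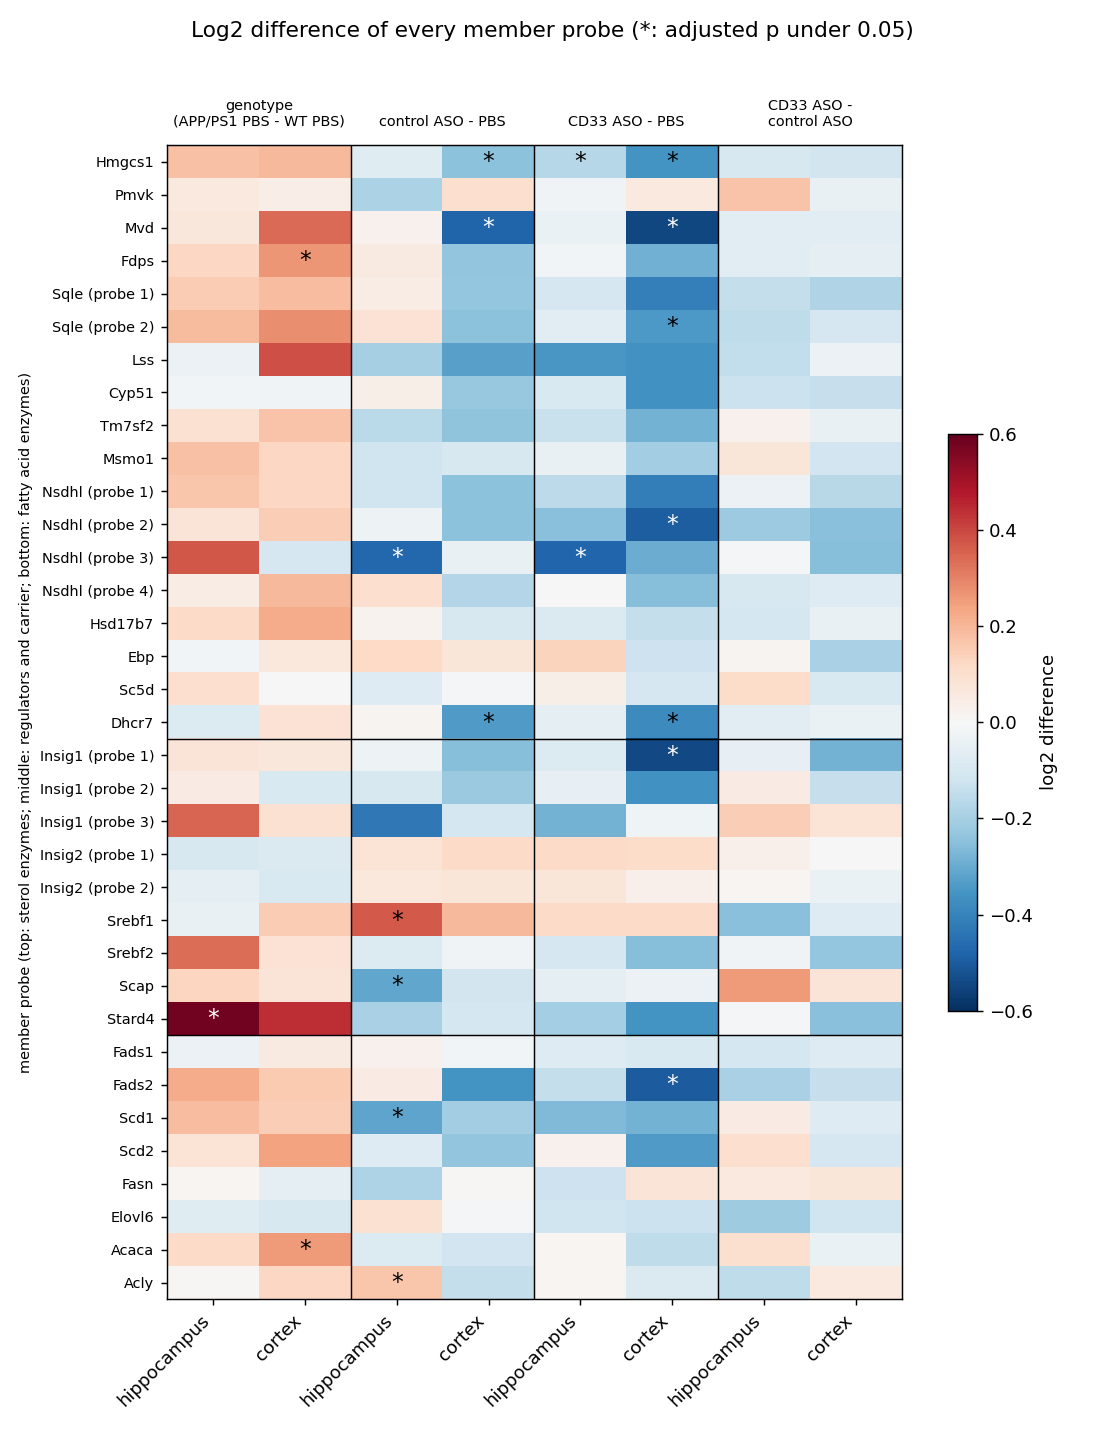
Log2 difference of each of the 35 member probes (rows) in 4 comparisons and both tissues (columns), with red for higher and blue for lower in the first-named group and an asterisk where the limma adjusted p was below 0.05. The column of CD33 ASO against PBS in the cortex holds 7 asterisks, all on lower values.

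The cortical difference between CD33 ASO and PBS held its direction on each slide that held both groups for all 7 called probes (4 of 4 slides). With slide as a block 10 member probes were called, Cyp51, Fdps and the first Sqle probe in addition. Without the 4 animals with low Thy1, 5 were called (Hmgcs1, Mvd, Dhcr7, Insig1 and Fads2). Without the animals collected on another day, 4 were called, namely Hmgcs1 (−0.35), Insig1 (−0.51), Fads2 (−0.52) and Scd2 (−0.46). Mvd then stood at −0.51 (limma adjusted p = 0.0536) and Dhcr7 at −0.33 (0.0843). Over all 14581 probes 193 were called in that fit, against 217 in the main fit. Leaving out single arrays gave 4 to 10 calls, with 4 without APP/PS1 PBS replicate 1. For the slide block, the low-Thy1 animals and single omissions, calls over all probes are not given here, so these counts have no background.

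Markers of myelinating oligodendrocytes moved in the same comparison. Of 12 such markers 9 were measured in the cortex, 6 of them were lower (median −0.34) and 0 higher, for example Opalin (−1.03, adjusted p = 3.02e-05) and Mog (−0.80), both genes of myelinating cells. Their summed linear signal ran from 31157 to 40377 after CD33 ASO, from 33693 to 41150 after control ASO, from 38379 to 45203 after PBS and from 36611 to 42460 in WT mice. By limma 0 of 9 measured astrocyte markers, 0 of 8 microglial markers and 0 of 6 neuronal markers were called (1, 3 and 0 at an unadjusted p below 0.05, against 13.1% of all probes). The part of oligodendrocyte number or state in the member values was not tested.

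The control ASO, given at the same dose, differed from PBS in the same PBS animals as above. In the cortex 3 of 35 member probes were lower and 0 higher (limma), where 0.562% of all tested probes were lower and 0.926% differed in either direction. All 3 were sterol enzymes. The median was −0.24 over sterol enzyme probes (16 of 18 negative) and −0.13 over fatty acid enzymes (7 of 8 negative), and −0.00077 over all tested probes.

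Hmgcs1 lay at 13.08, 13.61 and 13.85 after control ASO in the cortex (lowest, median and highest), with 8 of 11 arrays below all PBS arrays (−0.25, SE 0.0641, adjusted p = 0.0409). Mvd lay at 7.24, 8.02 and 8.74, with 7 of 11 arrays below all PBS arrays (−0.48, SE 0.123, adjusted p = 0.0396). Dhcr7 lay at 6.44, 6.79 and 6.96, with 8 of 11 below (−0.34, SE 0.0874, adjusted p = 0.0409). Thus most control ASO arrays were below the PBS range and the rest within it. The lowest and the highest control ASO array for Hmgcs1 and for Mvd were the 2 with low Thy1. Fads2 differed by −0.36 and was not called (adjusted p = 0.0947).

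These 3 calls were close to the threshold. With slide as a block 0 member probes were called (Hmgcs1 −0.20, adjusted p = 0.115, Mvd −0.42, 0.0951, and Dhcr7 −0.34, 0.0616), while Hmgcs1 and Mvd kept their direction on 5 of 5 slides and Dhcr7 on 4 of 5. Without low-Thy1 animals 2 were called and without animals of another collection day 4. Omitting APP/PS1 PBS replicate 1, 2, 5, 6 or 7 or control ASO replicate 2, 4, 5 or 10 left 0 calls, and omitting PBS replicate 4 or control ASO replicate 3 left 1. Of the 9 myelin markers 3 were lower in the same comparison (median −0.21), and their part was not tested.

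Both oligonucleotides were also compared with each other, which asks what the CD33 sequence adds to infusion of an oligonucleotide. In the cortex 0 of 35 member probes were called between CD33 ASO and control ASO by limma, where 0.322% of all probes were called. At an unadjusted p below 0.05 there were 3 of the 35, against 9.66% of all probes. All 18 sterol enzyme probes had negative differences, between −0.26 and −0.04 with a median of −0.10, as had 31 of 35 member probes, while the median over all probes was −0.0017. For Hmgcs1 the difference was −0.11 with a 95% interval of −0.23 to 0.01, and for Mvd −0.06 with −0.29 to 0.16. The first Insig1 probe had the largest of the 35 differences, −0.28 with an interval of −0.49 to −0.08 (adjusted p = 0.338). Beside them, 1 of 9 myelin markers was lower (Mog, −0.64). No setting tried gave a member call in this comparison.

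In the hippocampus the same contrast gave 0 member calls, where 1.73% of all probes were lower, 1.80% higher and 3.53% called in either direction. At an unadjusted p below 0.05 there were 9 member probes of 35, against 18.8% of all probes. The nearest were Elovl6, which elongates palmitate (−0.21, adjusted p = 0.0556), Scap (0.25, 0.0903), Acly (−0.15, 0.105), Fads1 (−0.10, 0.125) and Srebf1 (−0.25, 0.132). Sterol enzymes had a median of −0.07 and fatty acid enzymes of −0.03. Without the animals collected on another day Elovl6 was called (−0.25, adjusted p = 0.0366). Over all probes 478 were called in that fit, against 527 in the main fit. In the same comparison 3 of 8 myelin markers (Mog −0.76, Cldn11 −0.27 and Cnp −0.25) and 1 of 4 endothelial markers (Flt1 −0.26) were lower, and 2 of 8 plaque-associated microglial markers (Tyrobp 0.58 and Clec7a 0.53) were higher. Mog alone among these was called with slide as a block, and their part was not tested.

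**Figure D3:**
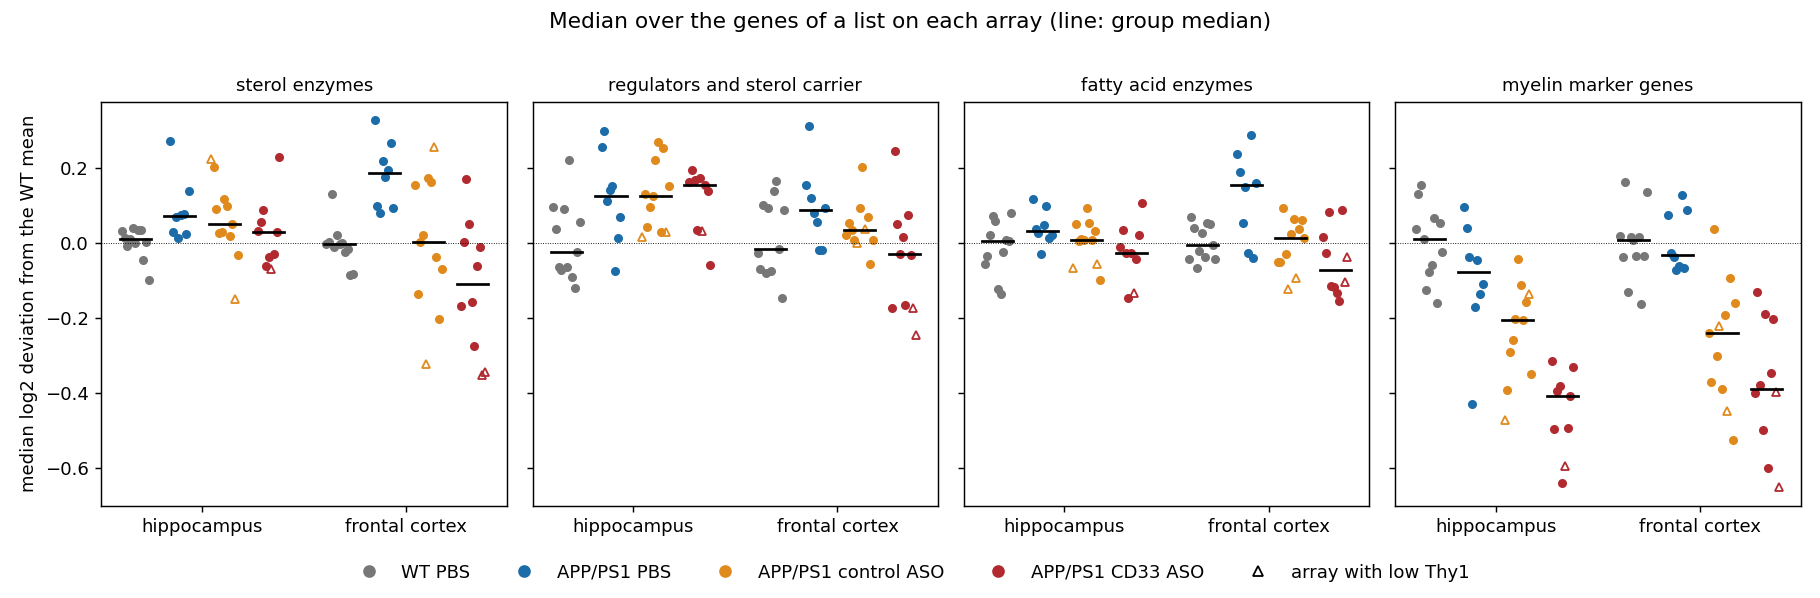
Median over the sterol enzymes, the regulators and carrier, the fatty acid enzymes and myelin marker genes on each array, as log2 deviation from the WT mean of each gene, by tissue and group, with lines at group medians and open triangles for arrays with low Thy1. In the cortex the sterol medians lay between 0.08 and 0.33 after PBS and between −0.35 and 0.17 after CD33 ASO, and the myelin medians between −0.07 and 0.13 and between −0.65 and −0.13.

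Summarised per array, the sterol enzymes of the cortex deviated from the WT mean by 0.08, 0.19 and 0.33 in APP/PS1 PBS mice (lowest, median and highest array). They deviated by −0.32, 0.00 and 0.26 after control ASO and by −0.35, −0.11 and 0.17 after CD33 ASO. WT arrays lay between −0.09 and 0.13. Thus the PBS-infused APP/PS1 arrays had the highest group median. Arrays of both ASO groups spread from below the WT range to above it and reached into the PBS range. In the hippocampus the same medians ran from 0.01 to 0.27 after PBS, from −0.15 to 0.22 after control ASO and from −0.07 to 0.23 after CD33 ASO, with wide overlap.

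The genotype comparison, APP/PS1 PBS against WT PBS, was mostly positive for members. It shares its APP/PS1 PBS animals with the ASO comparisons above, so a high PBS array moves them in opposite directions. In the cortex 2 of 35 member probes were higher and 0 lower by limma, where 3.66% of all probes were higher and 4.18% differed. The member share of calls is close to this background. The medians were 0.16 over sterol enzymes (15 of 18 positive), 0.08 over regulators and the carrier and 0.14 over fatty acid enzymes, and −0.026 over all probes.

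Acaca (gene 107476, chr11:84129635-84401651) lay at 10.40, 10.63 and 10.87 in APP/PS1 PBS and at 10.23, 10.41 and 10.46 in WT cortex, and 7 of 8 APP/PS1 arrays were above all WT arrays (0.25, SE 0.0539, adjusted p = 0.00138). Fdps (gene 110196, chr3:89093588-89101967) lay at 11.27, 11.35 and 11.51 against 10.99, 11.08 and 11.38. There 2 of 8 arrays were above all WT arrays, and the ranges overlapped (0.27, SE 0.0786, adjusted p = 0.0399). The Fdps call was lost without the animal collected on another day (0.24, adjusted p = 0.0524) and in 13 of 40 omissions of a single array, which were those of PBS replicates 1, 2, 5, 6, 7 and 8 and WT replicates 1, 2, 4, 8, 9, 10 and 11 (adjusted p up to 0.0796). Acaca was called without either set of animals. Uncalled members included the lanosterol synthase Lss (0.39, adjusted p = 0.0607), the 3-ketosteroid reductase Hsd17b7 (0.22, 0.0527), Sqle (0.28, 0.0771) and Stard4 (0.44, 0.0786). With slide as a block 4 members were called, and with each array centred on its median 0. Over all probes these fits called 692 and 456, against 609 in the main fit. Microglial markers were higher in the same comparison (8 of 8 measured, median 1.30) and myelin markers were not called (0 of 9), and their part was not tested.

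In the hippocampus the genotype comparison gave 1 higher member of 35, Stard4, and 0 lower, where 0.898% of all probes were higher and 0.952% differed. Stard4 lay at 7.57, 7.88 and 8.20 in APP/PS1 PBS and at 7.14, 7.32 and 7.55 in WT mice. The ranges did not overlap (8 of 8 arrays above), and the signal was 1.49-fold higher (0.58, SE 0.0935, limma adjusted p = 0.000107). Stard4 remained called under every setting in which 1 array was left out and with slide as a block (0.52, adjusted p = 0.000533). Hmgcs1 was next (0.18, adjusted p = 0.0621), at 13.35 to 13.57 against 13.18 to 13.42. Microglial markers were higher here too (5 of 8), and their part was not tested.

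In the hippocampus the ASO groups differed from PBS at few members. For CD33 ASO against PBS 2 of 35 member probes were lower and 0 higher, where 1.94% of all probes were lower, 3.02% higher and 4.96% called in either direction. Counted over both directions, the member share is close to the background. Hmgcs1 lay at 13.03, 13.29 and 13.49 against 13.35, 13.48 and 13.57, with 6 of 9 arrays below all PBS arrays (−0.17, SE 0.0498, limma adjusted p = 0.0323). Nsdhl probe 3, a different one from the cortical call, lay at 5.16, 5.99 and 6.53 against 5.94, 6.53 and 6.79, with 4 of 9 below (−0.48, SE 0.145, adjusted p = 0.0445). Sterol enzymes had a median of −0.08 and fatty acid enzymes of −0.10. With slide as a block 4 were called, and without the animals collected on another day 0. Over all probes these fits called 787 and 650, against 740 in the main fit. Without the low-Thy1 animals neither call was kept (Hmgcs1 −0.14, adjusted p = 0.0640, and Nsdhl probe 3 −0.37, 0.114), and Lss was called instead (−0.38, 0.0418). Myelin markers were lower in the same comparison (6 of 8 measured, median −0.29, Opalin −1.38) and microglial markers higher (5 of 8), and their part was not tested.

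For control ASO against PBS in the hippocampus 3 member probes were lower and 2 higher of 35, where 5.65% of all probes were lower, 5.73% higher and 11.4% differed. That share is close to the background. Srebf1 (gene 20787, chr11:60199084-60224186) lay at 6.56, 6.88 and 7.12 after control ASO and at 6.12, 6.45 and 6.87 after PBS (0.37, SE 0.0981, limma adjusted p = 0.0132). Scd1 (gene 20249, chr19:44394450-44407709) lay at 9.74, 9.93 and 10.55 against 10.18, 10.33 and 10.43 (−0.32, SE 0.0899, adjusted p = 0.0192). Thus 6 of 11 control ASO arrays exceeded all PBS arrays for Srebf1 and 9 of 11 were below all for Scd1, with 1 above all. The others were Scap (−0.31, adjusted p = 0.0208), Nsdhl probe 3 (−0.47, 0.0244) and Acly (0.17, 0.0470). With slide as a block 0 were called and Srebf1, Scap, Scd1 and Acly stood at 0.24, −0.07, −0.07 and 0.16 (adjusted p = 0.374, 0.791, 0.795 and 0.221). Calls over all probes also fell far below 11.4% in that fit, so the loss of calls was not particular to the members. Only 2 slides held both groups, so these members could hardly be compared within a slide. The 4 choroid plexus markers differed by −1.50 to −0.77 in the same comparison (0 called, 2 at an unadjusted p below 0.05, against 26.9% of all probes). Lower calls were made for 3 of 8 myelin markers (median −0.16) and the interneuron gene Gad1 (−0.26), and higher ones for 4 of 8 microglial markers, for 2 of 9 astrocyte markers (Atp1b2 0.24 and Fgfr3 0.40) and for the neuronal Slc17a7 (0.16). Opalin and the microglial C1qa alone among these were still called with slide as a block. The part of these cell types was not tested.

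**Figure D4:**
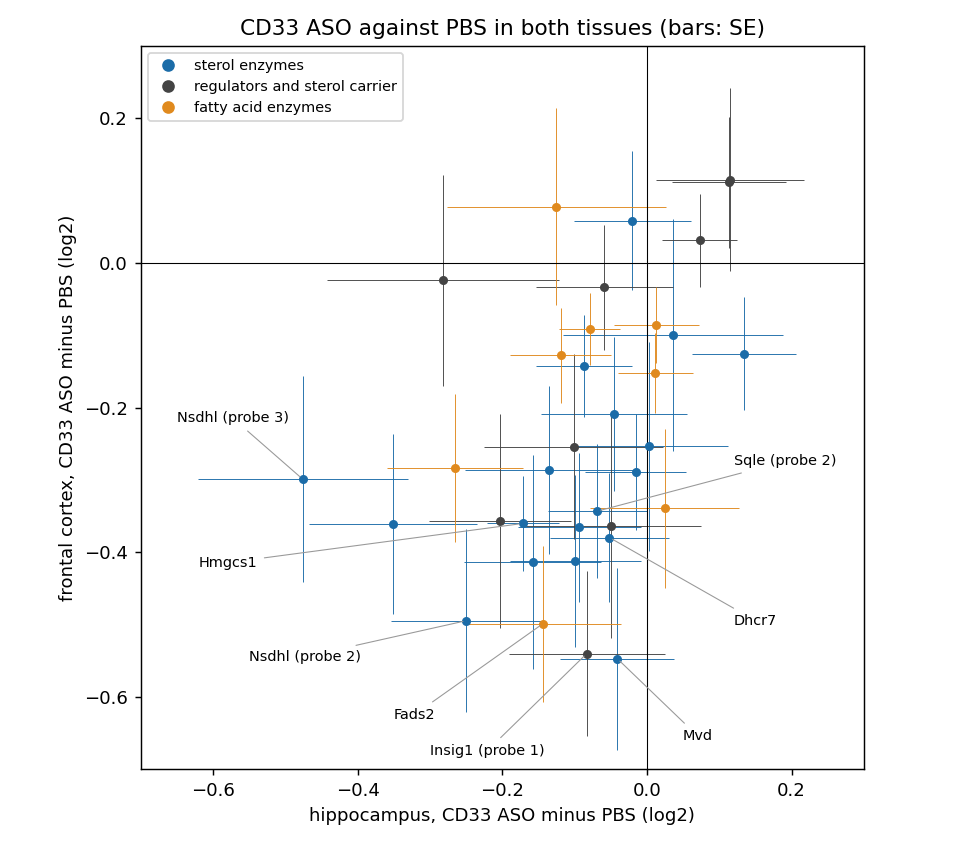
Log2 difference between CD33 ASO and PBS of each member probe in the hippocampus (horizontal axis) and the frontal cortex (vertical axis), coloured by role, with bars of 1 SE. Hmgcs1 stood at −0.17 in the hippocampus and −0.36 in the cortex.

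Whether the tissues differed was tested in a model over both tissues with animal as a block. For CD33 ASO against PBS 0 of 35 member probes differed between tissues, where 0.124% of all probes did. The sterol enzymes had a median tissue difference of −0.25 (cortex minus hippocampus, with 8 of 18 sterol, 1 of 9 regulator and 3 of 8 fatty acid probes at an unadjusted p below 0.05), with Mvd at −0.50 (limma adjusted p = 0.261) and Hmgcs1 at −0.19 (0.594). For tissue differences the share of all probes at that unadjusted p was not computed, so such counts have no background here. For control ASO against PBS 1 member, Acly, differed (−0.31, SE 0.0736, adjusted p = 0.0475), where 0.203% of all probes did. Its cortical levels were 11.73 to 12.15 after control ASO and 12.03 to 12.31 after PBS, and its hippocampal levels 11.83 to 12.28 and 11.70 to 12.04. The call was lost without the low-Thy1 animals, without the animals of another day, with median centring, without the animal block and without the filter. In each of these settings 0 of all probes were called, against 31 in the main fit, so the loss was not particular to Acly. For the genotype, and for CD33 ASO against control ASO, 0 members differed by limma, where 0.320% and 0.00654% of all probes did (2 of 18 and 1 of 18 sterol probes at an unadjusted p below 0.05).

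In WT PBS mice 14 of 35 member probes differed between cortex and hippocampus, where 38.1% of all probes did, so the members stood at the background share. Of the 14, 10 were higher in the cortex and 4 lower, while normalization within each tissue gave 4 higher and 5 lower. Over all probes that normalization gave 6980 calls, against 5822 in the main fit. Stard4 was 0.87 higher in the cortex (SE 0.110, limma adjusted p = 2.01e-10), Hmgcs1 0.31 (2.02e-07) and Acaca 0.28 (2.70e-07). Srebf1 was lower in the cortex (−0.35), as were both probes of Insig2, the second SCAP anchor (−0.22 each), and Elovl6 (−0.21). The tissues were run on different slides, so tissue and slide cannot be told apart here.

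**Figure D5:**
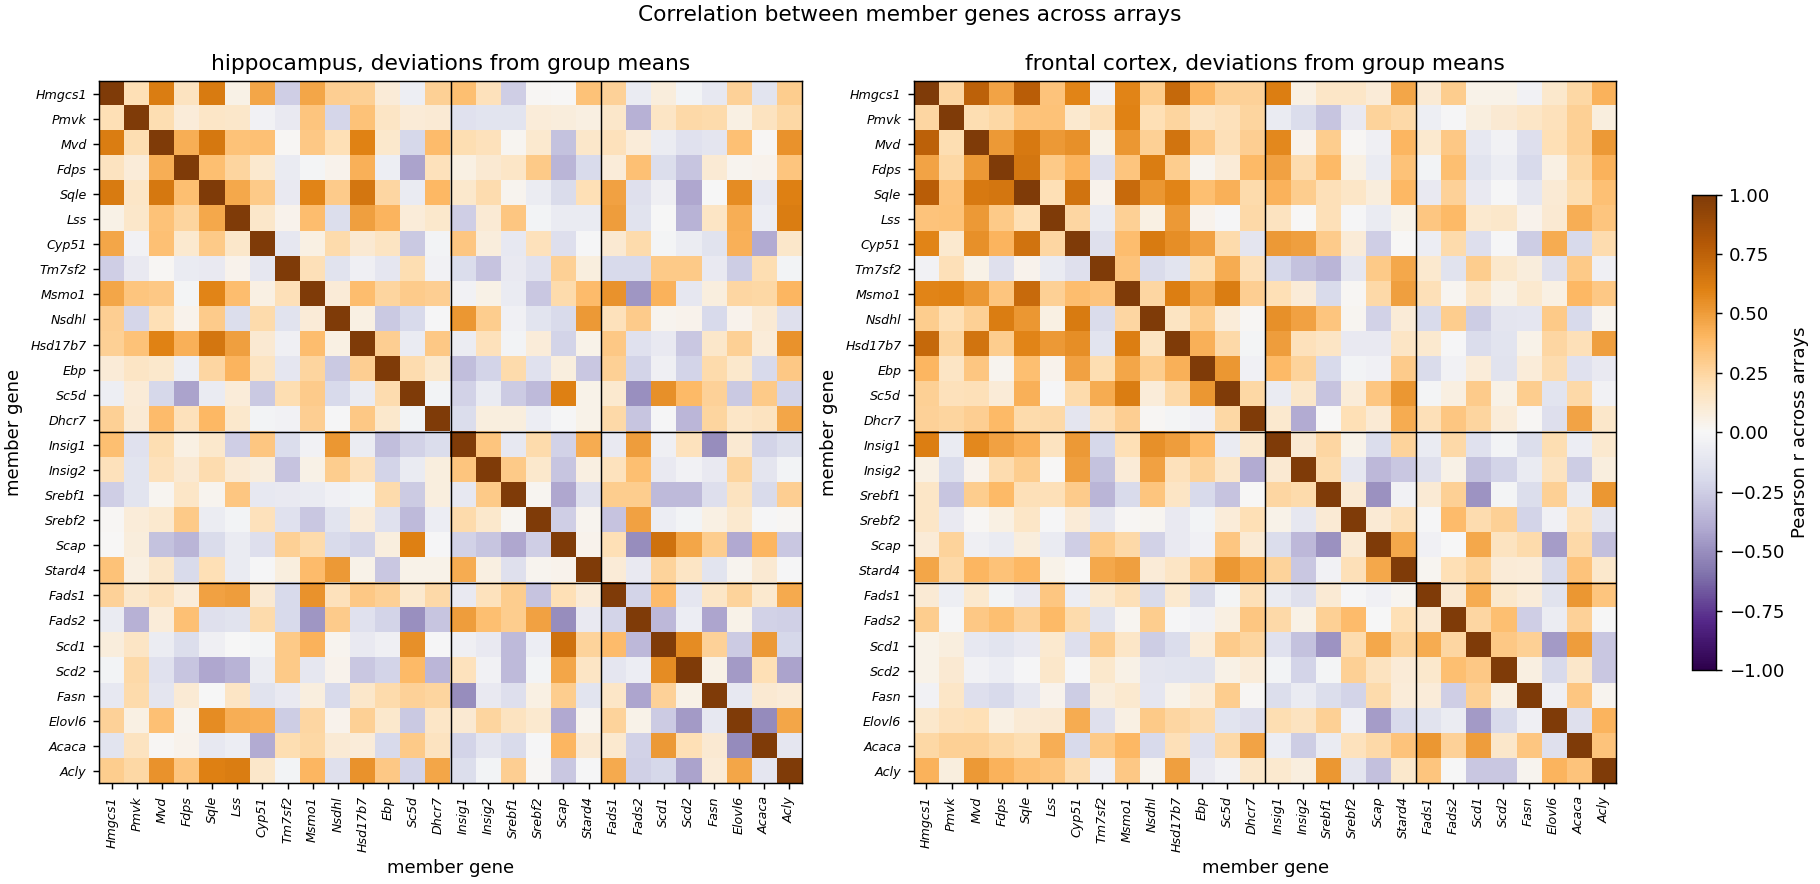
Pearson correlation between member genes (brightest probe of each) across arrays, computed on deviations from group means, in the hippocampus (39 arrays) and the frontal cortex (40 arrays). In the cortex sterol enzymes had a median correlation of 0.287 over 91 pairs.

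Members also varied together within groups. On deviations from group means, pairs of sterol enzymes had a median Pearson r of 0.155 in the hippocampus and 0.287 in the cortex (91 pairs each, 66 and 81 of them positive), against 0.00 over all probe pairs. With slide means removed too, these medians were 0.188 and 0.376. Fatty acid enzymes had medians of −0.0118 and 0.122 (28 pairs), and pairs of 1 sterol with 1 fatty acid enzyme 0.0892 in both tissues. The points share array, slide and normalization, and the medians are descriptions. The median r of Sqle with the other 13 sterol enzymes was 0.361 in the hippocampus and 0.519 in the cortex, and 0.285 and 0.548 with slide means removed. That of Mvd was 0.350 and 0.509, and 0.342 and 0.447 with slide means removed.

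Of 10 relations tested by permutation, with Benjamini-Hochberg adjustment over them, Hmgcs1 with Sqle was the strongest. In the cortex its r was 0.77 (two-sided permutation p = 1e-05, the smallest possible with 100000 resamples, adjusted p = 0.0001, rho 0.65, adjusted p = 0.000133, n = 40). It was 0.68 without the 2 arrays farthest from the median, 0.85 with slide removed and 0.72 to 0.95 within slides. In the hippocampus r was 0.63 (permutation p = 2e-05, adjusted 0.0001, rho 0.63, n = 39), 0.57 without 2 arrays, 0.53 with slide removed and 0.22 to 0.78 within slides.

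Hmgcs1 and Insig1 had an r of 0.61 in the cortex (permutation p = 4e-05, adjusted 0.000133, rho 0.65, n = 40), 0.51 without 2 arrays and 0.58 with slide removed. In the hippocampus their r of 0.36 (permutation p = 0.0223, adjusted 0.0447, rho 0.32, adjusted 0.0738) fell to 0.24 without 2 arrays and 0.15 with slide removed. Within slides it ran from −0.44 to 0.55. Scd1 and Scd2 had an r of 0.56 in the hippocampus (permutation p = 0.00016, adjusted 0.0004, rho 0.49, adjusted 0.0041), 0.47 without 2 arrays, 0.40 with slide removed and −0.08 to 0.91 within slides, and of 0.32 in the cortex (adjusted 0.0627, rho 0.31, adjusted 0.0738). Fads1 with Fads2 and Fasn with Acaca did not pass in either tissue (r −0.23 and 0.11, and 0.11 and 0.33, adjusted p from 0.0627 to 0.496). Across the 39 animals with both tissues, a member's hippocampal and cortical deviations had a median r of 0.240 over 28 members, from −0.17 for the sterol reductase Tm7sf2 to 0.58 for Cyp51, against 0.0852 over all probes.

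Other genes of these pathways were followed from lists of named genes. Of 12 further genes of sterol synthesis and its regulation 5 were measured in the hippocampus and 4 in the cortex, and 0 were called in any comparison (limma), while 1 had an unadjusted p below 0.05 in the hippocampus in each of CD33 ASO against control ASO and control ASO against PBS, and 1 in the cortex in each ASO comparison with PBS. Of all probes 18.8% and 26.9% passed that p in these hippocampal comparisons. In the cortex 13.1% did for CD33 ASO against PBS and 10.1% for control ASO against PBS. Of 25 further genes of fatty acid synthesis, elongation and activation 20 were measured. In the cortex Slc25a1, the mitochondrial citrate carrier, was higher in APP/PS1 PBS than in WT mice (0.25, adjusted p = 0.0369) and lower after CD33 ASO than after PBS (−0.31, adjusted p = 0.0200), 1 of 20 in each. Of all probes 3.66% were higher in the former comparison, close to that share, and 0.802% lower in the latter. In the hippocampus Thrsp was higher after CD33 ASO than after PBS (0.54, adjusted p = 0.000652), 1 of 20, where 3.02% of all probes were higher. After control ASO the malic enzyme Me1 was lower (−0.45, adjusted p = 0.00463) and the acyl-CoA synthetase Acsl5 higher (0.14, 0.0317). That was 1 of 20 in each direction, where 5.65% of all probes were lower and 5.73% higher, so these genes stood at the background share. Both control ASO calls were lost with slide as a block (Me1 −0.24, adjusted p = 0.327, and Acsl5 0.10, 0.341). Most calls over all probes were lost in that fit too.

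Of 15 genes of sterol turnover, storage and efflux 10 were measured. Ch25h, the cholesterol 25-hydroxylase made by microglia and macrophages, was higher in APP/PS1 PBS than in WT mice, by 0.94 in the hippocampus (limma adjusted p = 0.00536) and 2.06 in the cortex (4.01e-08). It was 1 of 10 in each tissue, where 0.898% and 3.66% of all probes were higher. In the hippocampus Nr1h3, which encodes the liver X receptor alpha, and Lcat, which esterifies cholesterol, were higher after CD33 ASO than after PBS (0.39, adjusted p = 0.0115, and 0.40, 0.000713) and after control ASO (0.51, 0.000571, and 0.29, 0.00967). They were 2 of 10 in each comparison, where 3.02% and 5.73% of all probes were higher. The control ASO calls were lost with slide as a block (Nr1h3 0.41, adjusted p = 0.0656, and Lcat 0.22, 0.281), as were most calls over all probes. In the cortex 0 of these 10 genes were called in the 3 comparisons of ASO groups. At an unadjusted p below 0.05 there were 2 for CD33 ASO against PBS, against 13.1% of all probes. There was 1 for control ASO against PBS and 1 for CD33 ASO against control ASO, against 10.1% and 9.66% of all probes.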

How the data were processed

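RNA of 79 tissue samples was hybridised to bead arrays (Illumina MouseRef-8 v2). The deposited signal intensities were background-subtracted by the authors, with 21.8 to 26.3% of hippocampal and 23.0 to 25.7% of cortical values below 0, and each has the authors' deposited detection p-value. A deposited log2 table of 18960 probes, which the values show to be quantile normalized by the authors within each tissue, was an alternative. Partek, GenomeStudio and BeadStudio were used, per the submitters' processing notes, with no version or step given there.

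Here the intensities were corrected and quantile normalized over all arrays with neqc (offset 16, limma 3.58.1, R 4.3.3) and tested per tissue over 4 groups with lmFit and eBayes with an intensity trend, with Benjamini-Hochberg adjustment over 14923 hippocampal and 14581 cortical probes and a threshold of 0.05. The tissues were compared over 15290 probes with animal as a random block (correlation 0.0801). Probe names came from the array annotation of the platform, and 17800 probes had 1 symbol. Gene coordinates and promoters came from RefSeq. Where a gene is read by several probes, the probes are reported singly, and the position of a probe within its gene was not given in the sources used here. Correlations were tested in scipy 1.17.1 by permutation. Scripts were tested on simulated data. The members and lists were chosen with earlier results of these data known. Members called in a comparison are given in full, otherwise mainly the 3 of each role with the largest differences, and other pathway genes are named where called. Named relations of Idi1 were not run, since its probe did not pass.

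Labels give separate animals as replicates. Shared replicate numbers do not mark a shared animal or litter, and the correlation of same-numbered arrays ran from −0.24 to 0.41. There were 5 slides per tissue and 3 surgery sessions. The number of arrays limits the precision.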

Additional observations from a re-analysis of the deposited data

Results flagged for a closer look

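In the APP/PS1 PBS and CD33 ASO groups, 140 sets of member values were searched for an array far from the others, and 9 had one (6.43%, where chance flags about 1 in 20). The WT and control ASO groups, of 11 arrays each, were not searched. The lowest of the CD33 ASO hippocampal arrays stood apart for Pmvk in replicate 4 (7.42, next value 7.87), for Sc5d in replicate 1 (6.15, next 6.87), and for the first and second Nsdhl probe and Insig1 probe 3 in replicate 6 (6.20, 6.28 and 5.16, next 6.77, 6.87 and 5.86). Replicate 6 is one of the arrays with low Thy1 and was collected after 16 days. The highest stood apart for Cyp51 in CD33 ASO hippocampal replicate 1 (9.10, next 8.70), for Mvd in APP/PS1 PBS hippocampal replicate 1 (8.47, next 8.17), for Lss in APP/PS1 PBS cortical replicate 6 (7.62, next 7.34) and for the first Insig1 probe in CD33 ASO cortical replicate 3 (6.48, next 6.20). Acly was the member whose difference between control ASO and PBS differed between tissues (−0.31, limma adjusted p = 0.0475).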

How the results depend on the processing

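Beside leaving out single arrays, 110 counts of called member probes stayed within 1.5 times their value and 37 did not, and 304 of 385 tests of called members stayed past the threshold, the other 81 keeping their direction. For the genotype in the cortex (2 calls), counts were 6 with array weights, 0 with median centring, 1 without a filter, 1 without the intensity trend, 1 with the replicate block, 4 with slide as a block, 7 without the low-Thy1 animals, which enter that comparison through the shared spread alone, and 1 without the animals of another collection day. Calls over all probes, 609 in the main fit, were 767, 456, 507, 582, 649, 692, 790 and 761 in that order. In the hippocampus (1 call) they were 2 with array weights, with slide as a block and without the low-Thy1 animals. For CD33 ASO against PBS the cortical count (7) was 4 without the animals of another day, with 193 calls over all probes against 217 in the main fit. The hippocampal count (2) was 1 with array weights, without background correction, without the intensity trend and with surgery session as a block, 1 other probe (Lss) without the low-Thy1 animals, 0 with median centring, without a filter and without the animals of another day, and 4 with slide as a block. Calls over all probes, 740 in the main fit, were 1042, 667, 694, 674, 752, 428, 618, 650 and 787 in that order. For control ASO against PBS the cortical count (3) was 0 with median centring, without a filter, with the replicate block and with slide as a block, and 1 without the intensity trend, and the hippocampal count (5) was 0 with slide as a block and 2 without the low-Thy1 animals. With slide as a block most hippocampal calls over all probes were lost too, so that loss was not particular to the members. For CD33 ASO against control ASO in the hippocampus (0) the member count was 3 with the replicate block, 1 with the strict filter and 1 without the animals of another day. Over all probes these settings gave 645, 594 and 478 calls, against 527 in the main fit. The tissue difference for control ASO (1) became 0 with median centring, without the animal block, without a filter, and without either set of animals, and the count for WT tissue (14) was 9 with normalization within each tissue. Over all probes 0 were called in each of those control ASO settings, against 31 in the main fit. For WT tissue 6980 were called, against 5822. Settings without a filter and with the strict filter also changed which probes were tested. The causes were not tested. Without single arrays the counts ran from 1 to 5 (cortex) and 1 to 2 (hippocampus) for the genotype, 4 to 10 and 0 to 3 for CD33 ASO against PBS, 0 to 4 and 3 to 6 for control ASO against PBS, and 0 to 0 and 0 to 2 for CD33 ASO against control ASO. Calls over all probes are not given here for single omissions.

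With median centring in the hippocampus, the correlation of Fads1 and Fads2 turned from −0.23 to 0.55 and that of Fasn and Acaca from 0.11 to −0.44, and the median of all probes for control ASO against PBS was 0.103. The replicate block used numbers that do not pair the animals (each array correlated best with its own number in 0 to 3 of 8 to 10 pairs). Under it, CD33 ASO against PBS gave 5 member calls in the cortex and 2 in the hippocampus. Dim probes such as that of Fasn lie near background.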

Other observations

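Of 5 measured oligodendrocyte precursor markers 1, Enpp6, was called in each tissue in both ASO comparisons with PBS. Of all probes 1.94% (hippocampus) and 0.802% (cortex) were lower after CD33 ASO, and 5.65% and 0.562% after control ASO. The medians over the 5 were −0.19 in each tissue after CD33 ASO, and −0.07 (hippocampus) and −0.04 (cortex) after control ASO. The highest of the 5 were 0.02 and 0.03 after CD33 ASO and 0.21 and 0.03 after control ASO. Enpp6, which newly forming oligodendrocytes express, was lower than after PBS in both tissues after CD33 ASO (−0.92 in the hippocampus and −0.88 in the cortex, limma adjusted p = 0.000134 and 0.000275) and after control ASO (−0.61 and −0.77, adjusted p = 0.00826 and 0.00137). Blocking on slide, the hippocampal control ASO difference was −0.66 and no longer called (adjusted p = 0.0876). Of 8 measured microglial markers 5 were higher in the hippocampus after CD33 ASO than after PBS and 4 after control ASO, among them C1qa (0.98 and 0.59). Of all probes 3.02% and 5.73% were higher in these comparisons. With slide as a block C1qa alone of those 4 was still called after control ASO (adjusted p = 0.0389), and C1qb, C1qc and Tmem119 were not (0.0625, 0.0717 and 0.0553). In the cortex 0 of 8 were called in either comparison (3 and 0 at an unadjusted p below 0.05, against 13.1% and 10.1% of all probes).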
